A study of Homo sapiens with 6 samples.

Results

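Oxidative phosphorylation passes electrons along protein complexes of the inner mitochondrial membrane and uses the proton gradient so formed to make ATP. Complex II (succinate dehydrogenase) feeds electrons from the citric acid cycle to ubiquinone, complex III passes them to cytochrome c, complex IV (cytochrome c oxidase) passes them to oxygen, and ATP synthase, also called complex V, lets protons flow back through a rotor that drives its catalytic head. All subunits of complex II, and most of those of the others, are encoded in the nucleus, while a few subunits of complexes III, IV and V are encoded by mitochondrial DNA. The 43 genes described here are a list of nuclear subunits of complexes II, III and IV and of ATP synthase together with the electron carrier *CYCS*, chosen by name from 67060 genes in the count table. The list leaves out some isoforms and relatives, which are given separately. They comprise 4 genes of complex II, 9 of complex III, *CYCS*, 11 of complex IV and 18 of ATP synthase, the last including the inhibitor *ATP5IF1*.

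RNA was sequenced from SH-SY5Y cells, a human neuroblastoma line, 24 h after infection with an adenovirus that carries, behind the CMV promoter, either GFP (Ad CMV GFP, 3 libraries, replicates 1, 3 and 4) or the mouse coding sequence of *Esrrg* with a 3xFlag tag (Ad CMV 3xFlag-*Esrrg*, 3 libraries, replicates 2, 3 and 4). *Esrrg* encodes ERRγ, an orphan nuclear receptor known as an activator of mitochondrial genes, and the comparison asks how raising it changes transcripts in this catecholaminergic line. Both groups were infected, and no uninfected cells enter this comparison. The sources used here do not say whether the libraries of a group came from separate cultures, so the p-values measure the spread between these libraries, which may be technical.

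Reads counted on genes numbered from 24969759 to 40859666 in the 6 libraries. Reads that the counting program assigned to no gene had a share of 51.3% to 52.2% in the GFP libraries, against 46.6%, 31.6% and 29.5% in Esrrg replicates 2, 3 and 4, so that replicate 2 stood near the GFP libraries in this measure. Counts on human *ESRRG*, which can hold reads of the mouse coding sequence, were 2357, 2796 and 2876 in the GFP libraries and 15228, 25994 and 26497 in Esrrg replicates 2, 3 and 4 (log2 fold change 3.02 ± 0.14 SE, edgeR adjusted p = 6.3e-07). Of 10 adrenergic neuroblastoma markers, 8 were detected, among them *HAND2* and *GATA3*, whereas *TH* and *CHGA* were listed at 0 in all 6 libraries. The mesenchymal markers *FN1* and *PRRX1* and the fibroblast marker *COL1A1* were also present, with *PRRX1* at 404 to 433 normalized counts per 1000000 counted reads (CPM) over the 6 libraries. Of the blood markers, *HBB* was at 0, *HBA1* had 0 to 4 counts per library and *PTPRC* 10 to 22. Of the 8 tested adrenergic markers, 2 were higher with *Esrrg*, *NEFM* (log2 fold change 0.94) and *PHOX2A* (0.81). Another 2 were lower, *DBH* (-2.64, edgeR adjusted p = 1.3e-06) and *STMN2* (-0.68). Among the other tested markers, 2 of 8 mesenchymal and 2 of 4 fibroblast genes were lower, and 1 of 3 epithelial genes (*KRT18*) was higher. The only tested blood gene, *PTPRC*, was not called (log2 fold change 0.80, edgeR adjusted p = 0.075). The part of these features in the results below was not tested. A fit that includes the share of reads outside genes is given. That share separated the groups fully, so the fit cannot tell it apart from the group.

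Nearly all of the subunit genes were higher in the Esrrg libraries. From the list of 43 genes, 42 passed the filter on low counts (the smallest count among them was 205, for *UQCR11*), and 41 were called higher, meaning a Benjamini-Hochberg adjusted p below 0.05 over all tested genes in edgeR's quasi-likelihood test and at least a 1.5-fold change. Among all 24500 tested genes 17.3% were called higher and 16.8% lower, and among the 13746 tested protein-coding genes 25.9% were called higher. None of the 42 was called lower by edgeR, 0 had a lower value at an unadjusted p below 0.05, and DESeq2 also called 41 higher and 0 lower. *SDHD* was the exception, with a difference below 1.5-fold. With no fold cutoff, 42 of the 42 genes passed, where 24.3% of all tested genes were higher. As a group the 42 genes had a median log2 fold change of 1.42, with a range from 0.46 (*SDHD*) to 2.19 (*ATP5MC1*), beside a median of -0.10 over all tested genes and 0.12 over tested protein-coding genes. In bulk RNA such a difference cannot be told apart from a change in the number of cells of a type or in RNA per cell.

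The groups did not overlap for any of these 42 genes, where 27.8% of all tested genes had every Esrrg library above every GFP library. Summed over the 42 genes, the level was 2726, 3168 and 3050 CPM in GFP replicates 1, 3 and 4 and 5669, 9448 and 9643 CPM in Esrrg replicates 2, 3 and 4. A rise of at least 2-fold was found for 33 genes, and of at least 4-fold for 3, namely *ATP5MC1*, *ATP5MC3* and *CYC1*. The smallest rise among the 33, that of *ATP5F1C* (2.15-fold), lay at percentile 93.7 of the log2 fold changes of all tested genes. The smallest among the 3, that of *CYC1* (4.36-fold), lay at percentile 99.3. Adjusted p-values of the called genes ran from 1.9e-05 to 0.0024 (edgeR). When the share of unassigned reads per library entered the fit as a covariate, 42 of the 42 log2 fold changes stayed above 0, but the median fell to 0.58 and 21 genes were called higher. In that fit the median over all tested genes was 0.02. The share of all tested genes called in it is not given here, so the lost calls cannot be set against a general loss. The 20 genes that lost their call were *SDHA*, *SDHB*, *SDHC*, *UQCRC2*, *UQCRB*, *UQCRH*, *COX6C*, *COX7A2L*, *COX7C*, *ATP5F1C*, *ATP5F1E*, *ATP5PO*, *ATP5PB*, *ATP5PD*, *ATP5MC2*, *ATP5ME*, *ATP5MF*, *ATP5MG*, *ATP5MJ* and *ATP5MK*. Set alone against the GFP libraries, Esrrg replicate 2, whose share of reads outside genes lay closest to theirs, gave a median of 0.83. The median over all tested genes was then -0.03.

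**Figure D1:**
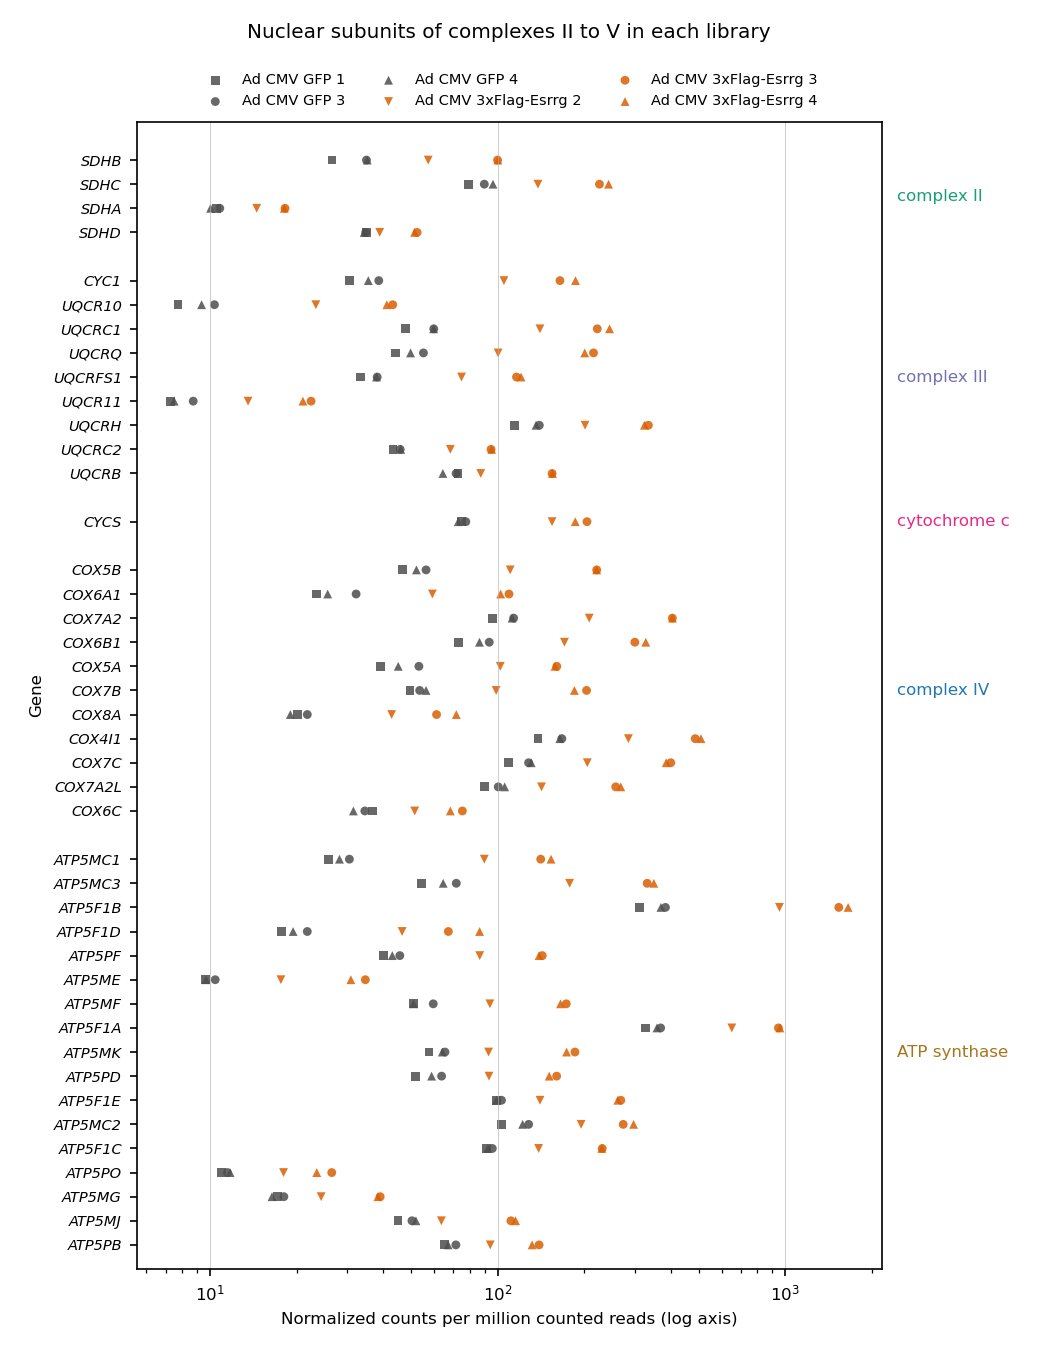
Normalized counts per 1000000 counted reads (log axis) of the 42 subunit genes that passed the filter, ordered within each complex by log2 fold change, with a point for each of the 6 libraries. Every orange point (Ad CMV 3xFlag-Esrrg) lies to the right of every grey point (Ad CMV GFP) of the same gene, and Esrrg replicate 2 is the leftmost orange point in 42 of 42 genes.

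ERR family receptors are known to bind the sequence TCAAGGTCA or its shorter form AAGGTCA, and promoters of respiratory genes are known for sites of NRF1 (searched here as GCGCANGCG), of ETS factors (CCGGAAG) and of YY1 (ATGGCG). These letters were looked up on both strands in RefSeq promoter windows of GRCh38.p14 that run from 250 bases before to 50 bases after a transcript start. The table had 41 windows for 35 of the 43 genes. The letters AAGGTCA occurred in 7 of the 41 windows (17.1%) and in 3.92% of 35116 windows of all genes. The windows that hold them belong to *SDHB*, *SDHD*, *COX7A2*, *COX8A*, *ATP5F1A*, *ATP5MG* and *ATP5MJ*. The full TCAAGGTCA, which contains the shorter form, was found in the *SDHD* window only, and in 0.353% of all windows. NRF1 letters stood in 13 member windows (31.7%, all windows 7.52%), ETS letters in 17 (41.5%, all windows 10.3%) and YY1 letters in 9 (22%, all windows 10.7%). In the 22199 windows of protein-coding genes the shares were 9.64% for NRF1, 12.8% for ETS and 13.1% for YY1. There they were 3.22% for AAGGTCA and 0.243% for TCAAGGTCA.

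The 7 genes with AAGGTCA had a median log2 fold change of 1.28 and the other genes with a window 1.43, and the genes with and without NRF1 letters had medians of 1.28 and 1.41. For ETS letters the medians were 1.43 with and 1.22 without, and for YY1 letters 1.51 and 1.28. These medians leave out the genes without a window. Their log2 fold changes were 2.17 (*ATP5MC3*), 2.12 (*CYC1*), 1.96 (*ATP5F1B*), 1.77 (*ATP5F1D*), 1.42 (*ATP5MF*), 1.19 (*SDHC*), 0.93 (*COX6C*) and 0.93 (*UQCRB*). *SDHD*, with the complete element, had the smallest log2 fold change of all 42 genes, and *ATP5MC1*, with the largest, had none of the searched letters in its window. A window without a match says only that these letters are not in that stretch, and a match is not a bound site. The windows of 4 of the genes with AAGGTCA, of *UQCR10*, a gene of large change, and of *ATP5MC1* are printed below 5′ to 3′ on the gene's strand, with all matches to the 5 searched motifs in capitals.
SDHD (chr11:112086623-112086922, plus strand): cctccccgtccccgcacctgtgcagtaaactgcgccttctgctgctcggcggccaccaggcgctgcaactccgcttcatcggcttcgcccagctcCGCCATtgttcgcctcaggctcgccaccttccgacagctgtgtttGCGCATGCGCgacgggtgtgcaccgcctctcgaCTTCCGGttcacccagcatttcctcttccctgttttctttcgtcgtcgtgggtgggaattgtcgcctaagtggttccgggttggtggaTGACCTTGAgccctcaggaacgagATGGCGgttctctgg
SDHB (chr1:17053983-17054282, minus strand): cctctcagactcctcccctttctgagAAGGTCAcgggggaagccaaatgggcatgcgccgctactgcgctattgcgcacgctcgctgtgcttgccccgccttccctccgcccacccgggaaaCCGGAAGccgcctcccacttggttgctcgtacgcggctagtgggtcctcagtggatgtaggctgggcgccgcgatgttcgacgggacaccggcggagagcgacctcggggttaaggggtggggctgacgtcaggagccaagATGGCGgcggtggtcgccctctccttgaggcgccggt
COX8A (chr11:63974370-63974669, plus strand): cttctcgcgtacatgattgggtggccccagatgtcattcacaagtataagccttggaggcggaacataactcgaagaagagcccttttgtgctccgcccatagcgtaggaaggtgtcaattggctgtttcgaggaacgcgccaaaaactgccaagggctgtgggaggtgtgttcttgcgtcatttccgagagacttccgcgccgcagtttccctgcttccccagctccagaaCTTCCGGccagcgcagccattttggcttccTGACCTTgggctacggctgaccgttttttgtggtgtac
ATP5MG (chr11:118401356-118401655, plus strand): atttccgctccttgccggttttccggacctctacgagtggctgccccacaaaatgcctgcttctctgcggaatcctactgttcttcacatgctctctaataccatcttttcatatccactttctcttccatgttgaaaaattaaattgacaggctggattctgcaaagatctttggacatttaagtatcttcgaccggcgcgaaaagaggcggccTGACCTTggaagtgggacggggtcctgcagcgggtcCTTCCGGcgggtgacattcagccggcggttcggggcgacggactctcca
UQCR10 (chr22:29767119-29767418, plus strand): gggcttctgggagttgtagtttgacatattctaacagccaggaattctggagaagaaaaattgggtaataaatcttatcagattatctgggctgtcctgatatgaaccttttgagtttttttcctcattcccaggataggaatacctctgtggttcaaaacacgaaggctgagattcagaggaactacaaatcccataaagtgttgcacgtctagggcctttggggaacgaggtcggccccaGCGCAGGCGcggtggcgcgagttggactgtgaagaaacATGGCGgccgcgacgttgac
ATP5MC1 (chr17:48892537-48892836, plus strand): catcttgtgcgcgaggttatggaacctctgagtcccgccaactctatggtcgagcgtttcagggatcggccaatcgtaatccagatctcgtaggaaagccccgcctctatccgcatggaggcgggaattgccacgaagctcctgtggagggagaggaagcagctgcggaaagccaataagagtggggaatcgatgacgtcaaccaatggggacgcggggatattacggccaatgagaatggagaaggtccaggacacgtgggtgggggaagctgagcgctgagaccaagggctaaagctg
In the *SDHD* window the capitals of the ERR element lie past the transcript start, on the opposite strand, and the same window also holds NRF1, ETS and YY1 letters.

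Complex II oxidises succinate to fumarate and has no mitochondrially encoded subunit. Its 4 genes had a median log2 fold change of 0.95, and 3 of them were called higher. *SDHB* (chromosome 1, 17018664 to 17054032, minus strand, GRCh38), the iron-sulfur subunit, stood at 26.5, 34.9 and 35.2 CPM in GFP replicates 1, 3 and 4 and at 57.3, 99.8 and 100.1 CPM in Esrrg replicates 2, 3 and 4. It changed most in this complex, with a log2 fold change of 1.41 ± 0.20 (SE, edgeR adjusted p = 0.00032). *SDHC* (chromosome 1, 161314381 to 161363206), a membrane anchor that binds heme and ubiquinone, had 79.2, 89.8 and 96.3 CPM in the GFP libraries and 138, 226 and 243 CPM in the Esrrg libraries. Its log2 fold change was 1.19 ± 0.18 (adjusted p = 0.00051).

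The other anchor, *SDHD* (chromosome 11, 112086824 to 112120016), was nearly flat by comparison, at 34.9, 34.8 and 34.3 CPM with GFP and 38.9, 52.4 and 51.4 CPM with *Esrrg*. Replicate 2 lay just above the GFP libraries, and the log2 fold change of 0.46 ± 0.12 (edgeR adjusted p = 0.0095) missed the 1.5-fold cutoff. Without Esrrg replicate 2 it was 0.69 and the gene was called. *SDHA* (chromosome 5, 218303 to 257082), the flavoprotein that carries the catalytic site, had 10.5, 10.8 and 10.0 CPM in the GFP libraries and 14.5, 18.2 and 18.1 CPM in the Esrrg libraries, a log2 fold change of 0.70 ± 0.12 (adjusted p = 0.00093).

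Pseudogenes of *SDHA* held more reads than the gene. Its 3 annotated pseudogenes with reads, *SDHAP1*, *SDHAP3* and *SDHAP4*, together held 566% of the *SDHA* count in the GFP libraries and 327% in the Esrrg libraries, and 42.3% of the words of 31 bases in its transcript occur elsewhere in the genome. With pseudogene counts added to the gene, the log2 fold change was 0.07 (adjusted p = 0.50) and the call was lost. *SDHA* also lost its call with library size as the only scaling and with protein-coding genes alone. High shares of repeated words were also found for *SDHC* (75.3%), *COX6A1* (68.8%), *SDHD* (66.6%) and *UQCRH* (49.7%), but their pseudogenes held between 0.050% (*UQCRH*) and 4.26% (*SDHD*) of the gene's count in the GFP libraries. With pseudogene counts added, *SDHC* had a log2 fold change of 1.18 and *COX6A1* of 1.74.

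The 9 listed nuclear subunits of complex III, the cytochrome bc1 complex, were all called higher, with a median log2 fold change of 1.51. *CYC1* (chromosome 8, 144095039 to 144097525), cytochrome c1, which hands electrons to cytochrome c, stood at 30.5, 38.6 and 35.5 CPM in the GFP libraries and 105, 165 and 186 CPM in the Esrrg libraries. This 4.36-fold rise (log2 2.12 ± 0.19 SE, edgeR adjusted p = 3.1e-05) was the largest of the complex. *UQCR10* (chromosome 22, 29767369 to 29770413), a small accessory subunit, had 7.73, 10.3 and 9.34 CPM with GFP and 23.3, 43.1 and 41.1 CPM with *Esrrg* (log2 fold change 1.97 ± 0.22 SE, adjusted p = 8.3e-05).

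The core proteins *UQCRC1* and *UQCRC2*, related subunits that face the matrix, both rose. *UQCRC1* (chromosome 3, 48599002 to 48610976) had 47.7, 59.9 and 59.8 CPM in the GFP libraries and 140.2, 222 and 245 CPM in the Esrrg libraries, a log2 fold change of 1.86 ± 0.19. *UQCRC2* (chromosome 16, 21953288 to 21983660) had 43.2, 45.8 and 46.0 CPM with GFP and 68.4, 94.8 and 95.2 CPM with *Esrrg*, a log2 fold change of 0.94 ± 0.13. The log2 ratio of *UQCRC1* to *UQCRC2* within a library was 0.30 ± 0.14 (SD, n = 3) with GFP and 1.21 ± 0.16 (n = 3) with *Esrrg*, with no overlap between groups. *UQCRB* (chromosome 8, 96222947 to 96235546), which lies near a ubiquinone site, changed least in this complex, from 72.8, 71.6 and 64.4 CPM to 87.3, 155 and 155 CPM (log2 fold change 0.93 ± 0.19, edgeR adjusted p = 0.0024). It lost its call with the covariate (0.08, edgeR adjusted p = 0.69), in Esrrg replicate 2 alone (0.33) and when scaled by library size only (0.58). The Rieske iron-sulfur protein *UQCRFS1* (1.51), the small subunits *UQCRQ* (1.79) and *UQCR11* (1.28) and the hinge protein *UQCRH* (1.14) had log2 fold changes between these values.

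*CYCS* (chromosome 7, 25118656 to 25125260), the soluble carrier cytochrome c, stood at 74.9, 77.4 and 72.9 CPM in the GFP libraries and 154, 204 and 186 CPM in the Esrrg libraries. It was called higher with a log2 fold change of 1.27 ± 0.11 (SE, edgeR adjusted p = 3.1e-05), smaller than that of its electron donor *CYC1*. The log2 ratio of *CYCS* to *CYC1* was 1.11 ± 0.16 (SD, n = 3) with GFP and 0.29 ± 0.28 (n = 3) with *Esrrg*, with no overlap. The 42 annotated pseudogenes of *CYCS* held 16.4% of its count in the GFP libraries and 5.11% in the Esrrg libraries, and with their counts added the log2 fold change was 1.13.

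All 11 listed nuclear subunits of complex IV were called higher, with a median log2 fold change of 1.61. *COX5B* (chromosome 2, 97646062 to 97648383), a zinc-binding subunit on the matrix side, was at 46.7, 56.3 and 52.1 CPM in the GFP libraries and 110.5, 221 and 221 CPM in the Esrrg libraries (log2 fold change 1.83 ± 0.23 SE, edgeR adjusted p = 0.00015). *COX6A1* (chromosome 12, 120438090 to 120440737), the isoform of subunit VIa found outside heart and skeletal muscle, was at 23.4, 32.2 and 25.6 CPM and at 59.3, 109 and 102 CPM (1.74 ± 0.21, adjusted p = 0.00014). These were the genes of largest change in the complex, and in both the Esrrg replicate 2 value lay between the GFP libraries and the other Esrrg libraries.

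*COX6C* (chromosome 8, 99873200 to 99893707), a small membrane subunit, changed least, from 36.6, 34.5 and 31.5 CPM with GFP to 51.4, 75.3 and 68.4 CPM with *Esrrg* (log2 fold change 0.93 ± 0.14, edgeR adjusted p = 0.0004). *COX7A2L* (chromosome 2, 42333546 to 42425088), a relative of *COX7A2* known for holding complexes III and IV together in supercomplexes, had 90.2, 100.4 and 106 CPM with GFP and 142, 257 and 268 CPM with *Esrrg* (1.17 ± 0.20, adjusted p = 0.00095). *COX7A2* itself (chromosome 6, 75237675 to 75250323) went from 95.7, 114 and 112 CPM to 208, 405 and 405 CPM (1.66 ± 0.22, adjusted p = 0.00022). The log2 ratio of *COX7A2L* to *COX7A2* moved from -0.12 ± 0.05 (SD, n = 3) with GFP to -0.60 ± 0.05 (n = 3) with *Esrrg*, with the groups apart.

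The remaining complex IV genes, *COX4I1*, *COX5A*, *COX6B1*, *COX7B*, *COX7C* and *COX8A*, had log2 fold changes between 1.43 (*COX7C*) and 1.66 (*COX6B1*). *COX4I1*, which is known for the site through which nucleotides regulate the enzyme, was among the most abundant of them, at 138, 167 and 164 CPM with GFP and 285, 486 and 509 CPM with *Esrrg*. A share of 35.4% of the exon length of *COX8A* lies under an exon of another gene on the same strand, so part of its reads may have been set aside as ambiguous. Of the isoforms known from muscle or testis, *COX6A2*, *COX7B2* and *COX8C* were listed at 0 in all 6 libraries, as were *SURF1* and *ATP5IF1*, which most cells use, and *COX7A1*, the muscle counterpart of *COX7A2*, had a log2 fold change of -0.03 (edgeR adjusted p = 0.93). The isoform *COX6B2* was present at 7 to 20 counts per library (log2 fold change -0.58, edgeR adjusted p = 0.23), and *COX4I2* had 0 to 3 counts.

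**Figure D2:**
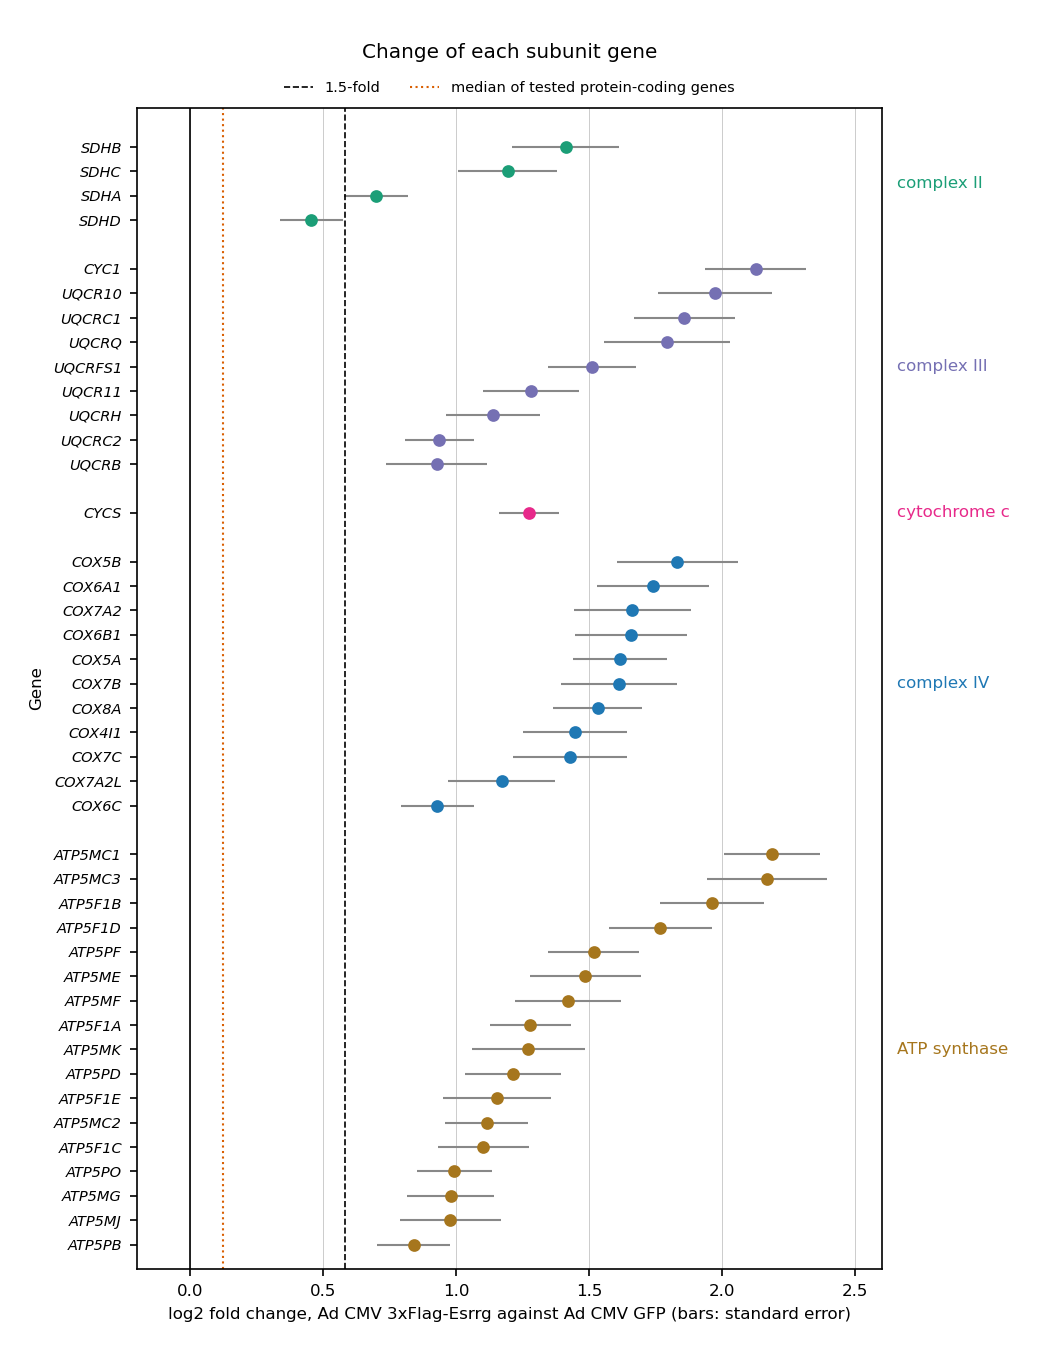
The log2 fold change of each of the 42 genes (Ad CMV 3xFlag-Esrrg against Ad CMV GFP, edgeR) with its standard error, grouped by complex, with the 1.5-fold cutoff (dashed) and the median of tested protein-coding genes (dotted) as vertical lines. Values run from 0.46 for SDHD, the only point left of the 1.5-fold line, to 2.19 for ATP5MC1.

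In ATP synthase, 17 of the 18 genes passed the filter and 17 were called higher, with a median log2 fold change of 1.27. Those of the catalytic head and its stalks (9 genes) had a median of 1.21 and those of the membrane part (8 genes) 1.35. *ATP5F1B* (chromosome 12, 56638175 to 56645984), the β subunit that holds the catalytic sites, stood at 312, 383 and 369 CPM with GFP and 954, 1534 and 1653 CPM with *Esrrg*, a log2 fold change of 1.96 ± 0.20 (SE, edgeR adjusted p = 5.4e-05). *ATP5F1A* (chromosome 18, 46080248 to 46104334), the α subunit, with which it alternates in the head, had 327, 368 and 358 CPM with GFP and 651, 946 and 958 CPM with *Esrrg*, a log2 fold change of 1.28 ± 0.15 (adjusted p = 0.00013). Their log2 ratio was -0.01 ± 0.07 (SD, n = 3) in the GFP libraries and -0.68 ± 0.12 (n = 3) in the Esrrg libraries, with no overlap between groups. Of the other subunits of the head, *ATP5F1D* had a log2 fold change of 1.77, *ATP5F1E* of 1.15 and *ATP5F1C*, the rotating γ subunit, of 1.10.

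The peripheral stalk, which keeps the head from turning with the rotor, holds the gene of smallest change in the enzyme. *ATP5PB* (chromosome 1, 111448864 to 111462773) was at 65.2, 71.5 and 67.2 CPM with GFP and at 94.2, 139 and 132 CPM with *Esrrg* (log2 fold change 0.84 ± 0.14, edgeR adjusted p = 0.00072), and its call was lost with the covariate (0.31), with library size as the only scaling (0.50) and in Esrrg replicate 2 alone (0.48). The stalk genes *ATP5PO*, *ATP5PD* and *ATP5PF* had log2 fold changes of 0.99, 1.21 and 1.52. Among the small membrane subunits, *ATP5MJ* (chromosome 14, 103912288 to 103928269) went from 45.0, 50.3 and 51.9 CPM to 63.7, 111 and 115 CPM (0.98 ± 0.19, edgeR adjusted p = 0.0019). Its log2 fold change was 0.11 (adjusted p = 0.54) with the covariate and 0.38 in Esrrg replicate 2 alone, without a call in either. The log2 fold change was also 0.98 for *ATP5MG*, and 1.27 for *ATP5MK*, 1.42 for *ATP5MF* and 1.49 for *ATP5ME*. For the last, 61.3% of the exon length is shared with exons of other genes when both strands are counted, and 0% on the same strand.

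Subunit c, whose ring forms the rotor, is made from 3 genes that encode the same mature protein with different import signals. *ATP5MC1* (chromosome 17, 48892765 to 48895871) was at 25.8, 30.5 and 28.2 CPM with GFP and at 89.8, 141 and 153 CPM with *Esrrg*. *ATP5MC3* (chromosome 2, 175176258 to 175181710) was at 54.4, 71.7 and 64.6 CPM and at 178, 331 and 349 CPM. *ATP5MC2* (chromosome 12, 53632726 to 53677408) was at 103, 128 and 122 CPM and at 195, 273 and 297 CPM. All 3 genes were called higher. *ATP5MC1* and *ATP5MC3* had log2 fold changes of 2.19 ± 0.18 (SE, edgeR adjusted p = 1.9e-05) and 2.17 ± 0.23 (adjusted p = 6.6e-05), the largest of all 42 genes, and *ATP5MC2* 1.11 ± 0.16 (adjusted p = 0.00028). The log2 ratio of *ATP5MC1* to *ATP5MC2* rose from -2.06 ± 0.06 (SD, n = 3) to -1.01 ± 0.09 (n = 3), and that of *ATP5MC3* to *ATP5MC2* from -0.89 ± 0.05 to 0.13 ± 0.22, while that of *ATP5MC1* to *ATP5MC3* was -1.17 ± 0.08 and -1.13 ± 0.13 with overlapping groups. In counts, *ATP5MC2* was the most abundant of the 3 with GFP, and *ATP5MC3* stood above it in Esrrg replicates 3 and 4. This order depends on transcript length. Per kilobase of the canonical transcript, *ATP5MC1*, *ATP5MC2* and *ATP5MC3* had mean levels of 43.5, 186 and 24.6 CPM with GFP. With *Esrrg* these levels were 198, 403 and 110 CPM, so *ATP5MC2* was highest and *ATP5MC3* lowest in both groups.

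A ratio of 2 genes within a library does not depend on how that library was scaled. Of the 8 pairs compared, 7 had no overlap between groups, with a two-sided exact permutation p = 0.1, the smallest that 3 libraries against 3 can give, and p = 0.114 after Benjamini-Hochberg adjustment over the 8 pairs. How often the ratios of other gene pairs separate these groups was not counted. The pairs were also chosen with earlier results of these data known, so the count of 7 describes these pairs only. The ratio of *ATP5MC1* to *ATP5MC3* differed by 0.03 (exact permutation p = 0.6). The ratio of *SDHA* to *SDHB* went from -1.61 ± 0.25 (SD, n = 3) to -2.30 ± 0.28 (n = 3), subject to the pseudogenes named above.

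**Figure D3:**
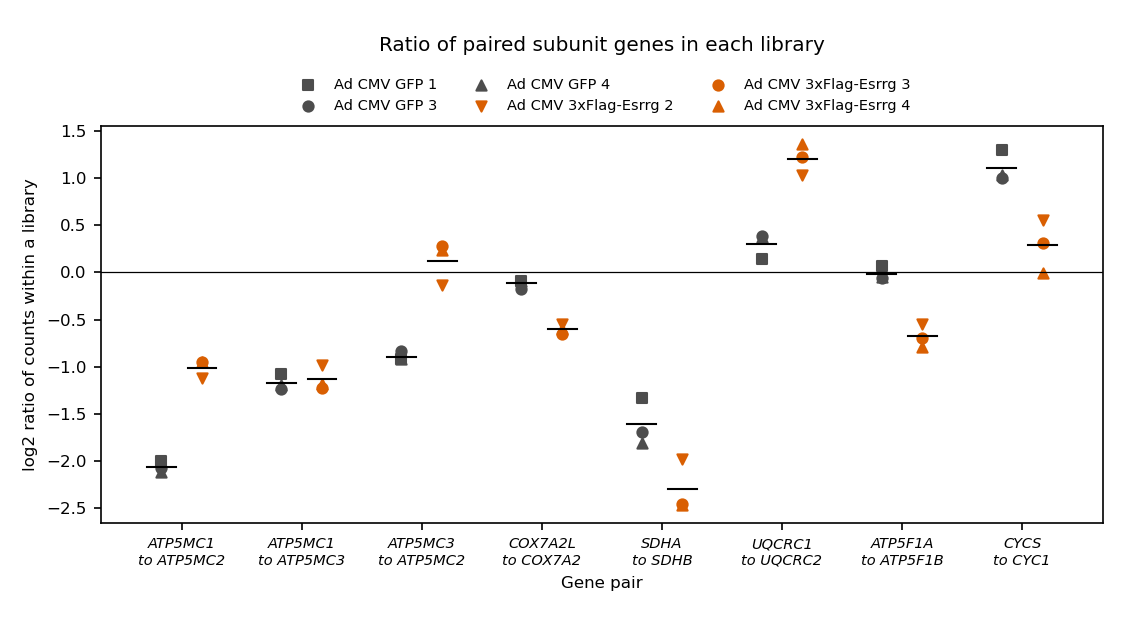
The log2 ratio of counts of paired subunit genes within each library (vertical axis), with a point per library and a black line at each group mean. The groups are apart for 7 of the 8 pairs, and overlap for ATP5MC1 to ATP5MC3.

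*ATP5IF1* (chromosome 1, 28236109 to 28246906), the inhibitor that stops ATP synthase from running backwards, was listed at 0 counts in all 6 libraries. A count of 0 allows up to 3 counts per library by counting error alone. None of the 31-base words of its transcript occur elsewhere in the genome. The nearby genes *SESN2* and *MED18* were also at 0 in all libraries, whereas *DNAJC8* and *PHACTR4*, on either side of these, had between 1841 and 4946 counts. No value can therefore be given for the inhibitor, and its ratio to *ATP5F1B* could not be computed.

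Esrrg replicate 2 had the lowest value of the 3 Esrrg libraries in 42 of 42 genes and lay above all GFP libraries in 42 of 42. The median over the genes, measured from the GFP mean on the log2 scale, was 0.83 in replicate 2, 1.62 in replicate 3 and 1.63 in replicate 4. On the scale from the GFP mean (0) to the mean of replicates 3 and 4 (1), replicate 2 stood at a median of 0.53 for the 42 genes (from 0.28 for *SDHD* to 0.76 for *CYCS*), at 0.86 for *ESRRG* itself and at 0.24 for the share of reads outside genes. On the GFP side, replicate 1 was the lowest library in 35 of the 42 genes. Leaving out any single library left 41 or 42 genes called higher.

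**Figure D4:**
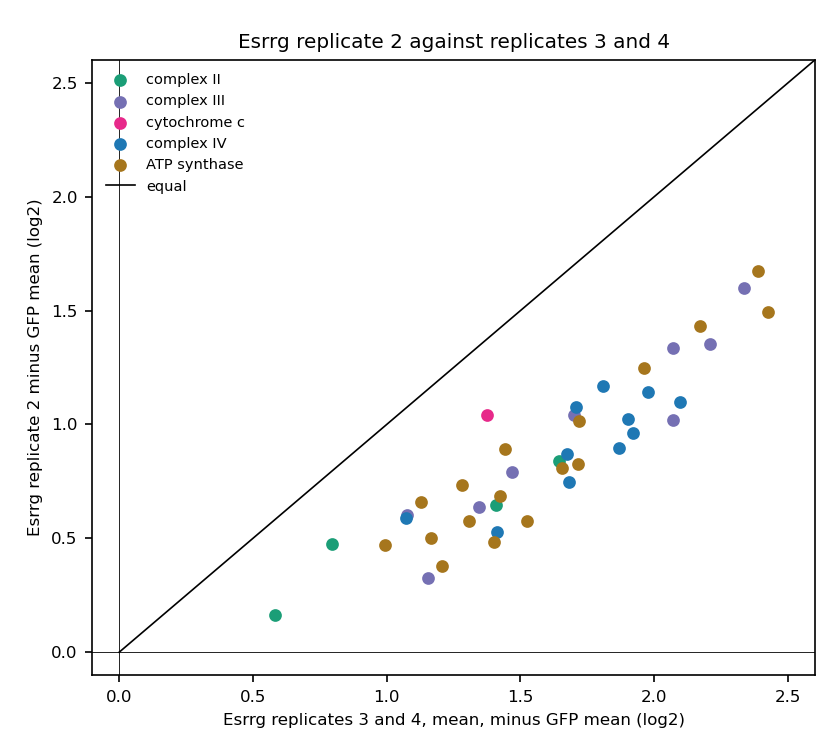
For each of the 42 genes, the log2 difference from the GFP mean in Esrrg replicate 2 (vertical axis) against the mean of Esrrg replicates 3 and 4 (horizontal axis), coloured by complex. Every point lies above 0 and below the line of equal values, and CYCS lies nearest to that line relative to its size.

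Levels per length, as CPM per kilobase of the canonical transcript, ranged in the GFP libraries from 3.88 for *SDHA* to 242 for *UQCRH*. *COX7A2* (232), *COX4I1* (205) and *ATP5F1B* (202) were also near the top, and *UQCR11* (6.03) and *UQCRB* (8.23) near the bottom. The *SDHA* count can miss reads that also match its copies, and the *UQCRB* level is divided by a canonical transcript of 8459 bases. Neither was corrected, so these low levels need not mean scarce transcripts. The order of the genes by this level was nearly the same with *Esrrg* (Spearman's rho 0.957 across the 42 genes, which share their libraries and are not independent). Both levels are divided by the same transcript length, and the GFP levels span 62-fold, more than the changes differ between genes. A high rho therefore says little about the changes. Across the same 42 genes, the log2 fold change had a Pearson correlation of 0.40 with GC content, 0.17 with the log level per length and -0.20 with log transcript length, given as descriptions. Correcting each library for GC content and length left 41 genes called higher and a median of 1.43.

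The mitochondrially encoded subunits of the same complexes were not called. None of the 6 genes (*MT-CYB* of complex III, *MT-CO1*, *MT-CO2* and *MT-CO3* of complex IV, *MT-ATP6* and *MT-ATP8* of ATP synthase) was called by edgeR or by DESeq2, and 0 of 6 had an unadjusted p below 0.05. Their log2 fold changes ran from -0.26 (*MT-ATP8*) to 0.26 (*MT-CO3*), with a median of -0.13. Summed, they stood at 34469 ± 1622 CPM (SD, n = 3) with GFP and 34463 ± 2667 CPM (n = 3) with *Esrrg*, whereas the nuclear subunits rose from 2981 ± 229 to 8254 ± 2240 CPM. These values depend on the library scaling factors (TMM). The factors were 1.13, 1.11 and 1.12 in GFP replicates 1, 3 and 4 and 1.01, 0.85 and 0.83 in Esrrg replicates 2, 3 and 4. Scaled by library size only, the mitochondrial sums would be lower in Esrrg replicates 3 and 4 than in every GFP library.

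Annotated pseudogenes of the subunit genes were counted separately. Of 174 such pseudogenes 40 were tested, of which 2 were called higher and 10 lower (DESeq2, 2 and 2), with a median log2 fold change of -0.49 and a summed level of 119 ± 5.0 CPM (SD, n = 3) with GFP and 102 ± 13 CPM (n = 3) with *Esrrg*. *UQCRHL*, a near copy of *UQCRH*, had a log2 fold change of 1.12 (edgeR adjusted p = 0.00074), close to the 1.14 of *UQCRH*, from which its reads may not have been separated. *NDUFA4*, now counted as a subunit of complex IV, was at 123, 153 and 146 CPM with GFP and 245, 487 and 474 CPM with *Esrrg* (1.51, adjusted p = 0.0004).

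Proteins that build these complexes were counted from a list of their own. Of 41 assembly factors of complexes II to V, 39 were tested, 21 were called higher and 1 lower, with a median log2 fold change of 0.62. With the covariate 6 of them were called higher. The share of all tested genes called in that fit is not given here, for this count or for that of complex I below. Among them the complex IV factors *COA4* (1.55) and *COA3* (1.34), the translational activator of *MT-CO1* named *TACO1* (1.27), *UQCC2* (1.28) and *BCS1L* (1.12) of complex III and *ATPAF2* (1.01) of ATP synthase rose. *COX20*, a chaperone of the MT-CO2 protein, was called lower (-0.66, edgeR adjusted p = 0.0078), though not by DESeq2. *SURF1* was listed at 0 in all 6 libraries. For comparison, of 37 nuclear subunits of complex I, 34 were tested, 29 were called higher and 0 lower (1 lower at an unadjusted p below 0.05, 0 by DESeq2), with a median log2 fold change of 1.15, and 10 were called higher with the covariate. Differences between these lists and the subunits of complexes II to V were not tested.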

How the data were processed

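Total RNA depleted of ribosomal RNA was sequenced with directional libraries. Per the labels' processing notes, the authors used Trim Galore 0.6.7, STAR 2.7.9a and HTSeq 0.11.3 on GRCh38, and deposited raw read counts per gene. The annotation release and the strand setting are not given in the sources used here. Of 67060 identifiers, 60419 matched GENCODE 44 without their version, which supplied symbols, coordinates, lengths and overlaps. Rows for reads outside genes, ambiguous reads (4.55% to 9.84% of reads) and reads aligned to several places (7.16% to 13.0%) stayed out of library sizes. Only reads with a single place were thus counted, so genes with copies lose reads.

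Counts were filtered with filterByExpr (24500 genes), scaled by TMM and compared with edgeR 4.0.16 (quasi-likelihood, R 4.3.3), 3 libraries against 3, without a block. Calls needed an adjusted p below 0.05 and 1.5-fold. Each standard error was taken as the size of the log2 fold change divided by the root of its F statistic, and CPM use the TMM factors. Gene ratios added 2 counts to each gene and were compared by exact permutation over libraries. Alternatives were DESeq2 1.42.0, other scalings and filters, protein-coding or nuclear genes alone, other fold cutoffs, each library left out, the replicate block, GC and length curves (mgcv 1.9.3), the unassigned share of reads as a covariate and pseudogene counts added. Setting Esrrg replicate 2 alone against the GFP libraries was chosen after the data were seen. Fits were tested on simulated counts. Words of 31 bases were looked up in GRCh38, and promoter windows came from RefSeq (GRCh38.p14).

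The 43 genes, the other lists and the pairs were chosen with earlier results of these data known. Values by library are given for complex II, *CYCS*, the genes of the pairs and the 2 largest and 2 smallest changes in each complex. *COX4I1* and *NDUFA4* among those given by library, the assembly factors named, and the genes near *ATP5IF1* were picked after their values were seen, as were the motifs' printed windows. The limit of 3 counts covers counting error only.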

Additional observations from a re-analysis of the deposited data

How the results depend on the processing

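No log2 fold change of the 42 tested genes turned negative under any alternative run. The count of genes called higher was 41 with RLE size factors, no filter, at least 10 counts in every library, nuclear genes only, the GC and length curves and DESeq2, 40 with protein-coding genes only and with pseudogene counts added, 38 with library size as the only scaling, 37 in a test against a 1.5-fold threshold and 33 with a 2-fold cutoff. No gene was called lower in any of these. The shares of all tested genes called under these alternatives are not given here. Library size as the only scaling moved the median of all tested genes from -0.10 to -0.42 and that of the subunit genes from 1.42 to 1.07, so that their difference went from 1.52 to 1.49.

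With the unassigned share of reads as a covariate the fit left 21 genes called higher, 0 of complex II (3 of its 4 genes had an unadjusted p below 0.05) and 6 of ATP synthase, with a median log2 fold change of 0.58. The median over all tested genes was 0.02 in the same fit. Its share of called genes over all tested genes is not given, so these counts cannot be set against a general loss of calls. Every Esrrg library had a lower share than every GFP library, and the cause of the loss was not tested. Without Esrrg replicates 3 and 4 together, 11 ATP synthase genes were called and the median was 0.83 (0.835), the lone library being assumed to vary like the others. Leaving out a single library gave 41 to 42 called genes and medians from 1.27 (without Esrrg replicate 3) to 1.75 (without Esrrg replicate 2). With pseudogene counts added, the difference in the log2 ratio of *ATP5MC1* to *ATP5MC3* was -0.00123 (exact permutation p = 1) in place of 0.03.

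The groups share the numbers 3 and 4 only, and deviations from the group means correlated at 0.08 and -0.0001 for same-numbered libraries, so the numbers were not taken to pair them. With the replicate block, 42 genes were called higher with a median of 1.55, and 42 with the block and the GC and length curves together (median 1.56). *SDHD* was the gene added.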
